A study of Mus musculus with 7 samples.

Results

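The genes described here are 10 glycolytic isoenzyme genes, chosen by name as the forms of 4 enzymes that differ between striated muscle and other tissues, with the muscle form of phosphoglycerate mutase: Hk1 and Hk2 (hexokinase), Pfkm, Pfkl and Pfkp (phosphofructokinase), Eno1 and Eno3 (enolase), Ldha and Ldhb (lactate dehydrogenase) and Pgam2. All 10 have a row among the 15967 rows of the deposited table, and all passed the minimum mean of 1 FPKM (fragments per kilobase of transcript and 1e6 mapped fragments). The RNA came from the sinoatrial node, the pacemaker region of the right atrium, of Sv129 mice at postnatal 3 weeks. The control library was from mice of genotype Baf250af/f, which carry floxed alleles of Baf250a (gene symbol Arid1a, which encodes a chromatin remodelling subunit) and no Cre. The other library, called the Cre library below, was from Baf250af/f;Hcn4CreERT2 mice taken 6 days after tamoxifen, and both genotypes carry the floxed alleles. Values given in pairs are control first and Cre second. In those mice a tamoxifen-activated recombinase is driven from Hcn4, a gene of pacemaker cells, so recombination is limited to cells in which that gene was active. Each genotype is 1 library, so differences carry no replicate error and the genotypes could not be tested. Neither the number of mice behind a library nor tamoxifen treatment of the controls is stated in the labels.

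Glycolysis breaks glucose down to pyruvate. Hexokinase traps glucose in the cell, phosphofructokinase is the main point of control, enolase forms phosphoenolpyruvate, and lactate dehydrogenase converts pyruvate to lactate and back. Most of these enzymes exist as isoenzymes from separate genes, and tissues differ in the forms they use. Pfkm, Eno3 and Pgam2 are muscle forms, and Hk2 is the hexokinase of insulin-responsive tissues such as muscle and fat. Ldhb is the heart subunit, whereas Ldha prevails in tissues that make lactate, skeletal muscle among them. Hk2, Pfkm, Eno3, Ldhb and Pgam2 are called heart or muscle forms below. Ldha is thus counted among the other forms, although skeletal muscle uses it.

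Floxed Arid1a had 34.9 and 12.3 FPKM (log2 ratio -1.43). The authors' deposited test did not call this difference significant (p-value 0.0603, q-value 0.838). How far the Arid1a difference reflects recombination, or the other differences between the libraries given below, was not tested. Each log2 ratio compares FPKM + 1 of Cre with that of control, a scale that understates the change of weak genes. The libraries also differed in other ways. All 19 thymocyte markers were lower in the Cre library (log2 ratios from -7.90 to -3.43), with summed levels of 3353 and 11.9 FPKM and with Rag1 at 436 and 0.832 FPKM. All 25 measured cell cycle genes were lower too (median -3.31). Cardiomyocyte markers summed to 17397 and 26546 FPKM, with 10 of 19 at least 2-fold higher, and lung and airway markers to 4210 and 18682 FPKM, with 12 of 13 at least 2-fold higher. Xist had 0.379 and 93.2 FPKM and the Y-linked Eif2s3y 85.8 and 0.118 FPKM (named here with their values known), so that genotype and sex cannot be told apart. Hcn4, the defining channel gene of pacemaker cells, stood at 0.605 and 0.719 FPKM, and Isl1, a transcription factor of the node, at 1.69 and 2.02 FPKM. Both genes were thus in the lower part of the table, and no list of node markers was examined. In whole tissue, fewer cells of a type and less RNA per cell cannot be told apart.

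Promoter sequences are shown for the enolase pair, whose isoenzyme shares differed most between the libraries, and for Pgam2, the muscle form whose share differed least. Each line gives the 250 bases before the annotated start, 5′ to 3′ on the gene's strand, from RefSeq on GRCm38.p6, with each CG dinucleotide in capitals.
Eno1 (chr4:150236947-150237196, plus strand): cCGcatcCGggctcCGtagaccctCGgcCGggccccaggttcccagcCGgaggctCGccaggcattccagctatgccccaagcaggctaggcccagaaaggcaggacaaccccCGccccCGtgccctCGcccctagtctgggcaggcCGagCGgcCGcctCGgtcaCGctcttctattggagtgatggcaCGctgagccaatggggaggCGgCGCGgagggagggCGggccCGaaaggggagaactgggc
Eno3 (chr11:70656926-70657175, plus strand): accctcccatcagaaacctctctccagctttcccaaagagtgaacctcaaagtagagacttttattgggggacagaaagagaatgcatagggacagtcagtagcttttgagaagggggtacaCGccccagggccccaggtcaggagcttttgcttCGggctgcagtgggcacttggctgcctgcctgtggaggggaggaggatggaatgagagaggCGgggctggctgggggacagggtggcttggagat
Pgam2 (chr11:5803797-5804046, minus strand): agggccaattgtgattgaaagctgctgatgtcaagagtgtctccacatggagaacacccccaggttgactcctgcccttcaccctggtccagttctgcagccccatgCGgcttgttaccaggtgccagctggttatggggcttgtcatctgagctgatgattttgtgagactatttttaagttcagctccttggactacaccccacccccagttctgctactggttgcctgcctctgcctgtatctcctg
The Eno1 sequence holds 21 CG dinucleotides, the Eno3 sequence 3 and the Pgam2 sequence 1. Over the full 300-base windows, which add 50 bases after the start, the CpG ratio (observed over expected CG) was 0.68 for Eno1, 0.13 for Eno3 and 0.05 for Pgam2, beside a median of 0.38 over 32851 promoter windows of the same length. Pfkm had 0.40 at the start used here, near that median, and lay between 0.19 and 0.46 over its 4 annotated starts. Hk2 (0.76) and Ldhb (0.70) did not share the low ratio of Eno3 and Pgam2. They lay beside Pfkl (0.70) and Pfkp (0.68), and Ldha had 0.88 at its main start. Hk1 had 0.05 at one of its 2 starts and 0.67 at the other.

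The hypoxia response core ACGTG, searched on both strands and counted also where it lies inside the E-box CACGTG, gave 5 matches in the Ldha window, 3 in the Pfkm window and 2 in the Hk2 window. An E-box reads the same on both strands and gives 2 matches, and the Ldha window holds 2 E-boxes and the Pfkm window 1. The core was absent from the windows used for the other 7 genes, and 19.6% of all windows hold it. This depends on the start used: 1 of the 2 Hk1 starts, 1 of the 2 Ldha starts and 2 of the 4 Pfkm starts hold the core. The M-CAT letters CATTCC, a motif described in muscle promoters, were found on either strand in the windows of Eno1, Eno3 and Pgam2, beside 14.7% of all windows. The match begins 188 bases before the start in Eno1, 47 in Eno3 and 1 in Pgam2. Most of the Pgam2 match thus lies after the start, outside the sequence shown. These are letter matches in a short window and describe no binding.

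The heart or muscle forms were higher in the Cre library than in the control, by 1.17-fold to 1.85-fold in FPKM, while their counterparts had between 0.668-fold and 1.22-fold the control level. In enolase and lactate dehydrogenase the more abundant form differed between the libraries. All 5 heart or muscle forms had log2 ratios above 0 (median 0.54), against 2 of the other 5 members (median -0.15). Over all 13408 genes tested, 6162 had ratios above 0 and the median was -0.07. Pgam1, the counterpart of Pgam2, is not a member and was also above 0 (0.29). The direction depends on the scaling: with ratios centred on fibroblast and endothelial markers (0.41 subtracted) Hk2, Pfkm and Eno3 alone of the 10 were above 0, and with ratios centred on cardiomyocyte markers (1.16 subtracted) none was. Eno1 and Ldha were below 0 under every scaling tried. None of the 10 genes was 2-fold higher (background 6.08% of genes tested) or 2-fold lower (background 10.4%). The authors' deposited table called none of them significant (background 0.564%), with p-values from 0.263 to 0.883 and q-values of 0.999.

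**Figure D1:**
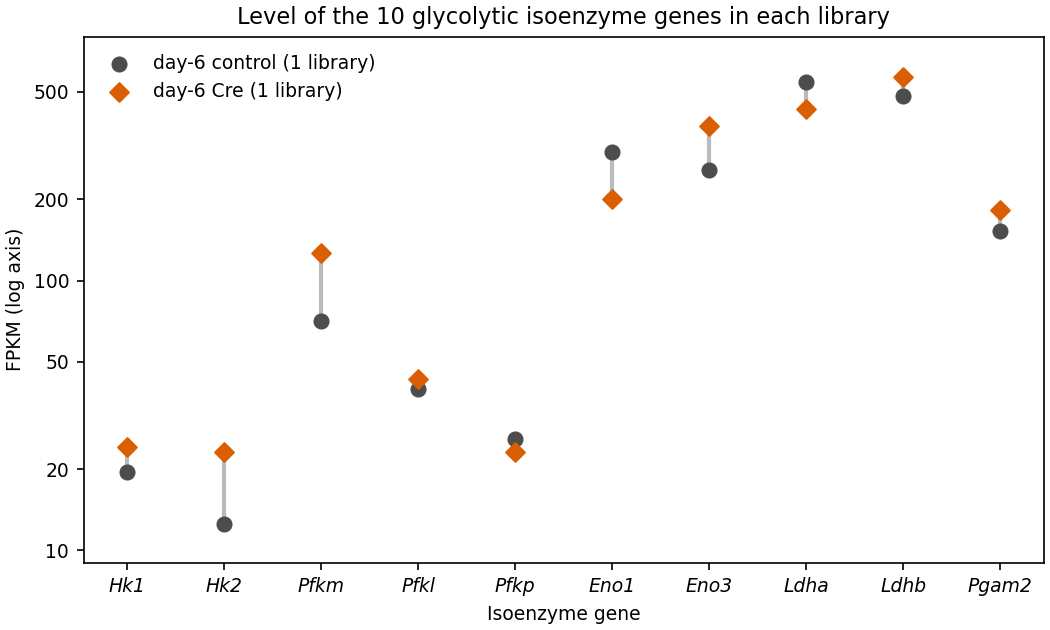
Level of each of the 10 genes in FPKM (log axis) in the control library (circles) and the Cre library (diamonds), joined by a line, with 1 library per genotype and so no error bar. Eno1 and Ldha lie above Eno3 and Ldhb in the control library and below them in the Cre library.

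Hk1, the form of most tissues, (mm9 chr10:61731602-61842656) had 19.6 and 24.1 FPKM, with a log2 ratio of 0.28 that became -0.13 with the fibroblast and endothelial centring. Hk2 (chr6:82675020-82724448) had 12.5 and 23.1 FPKM, or 1.85-fold, and its log2 ratio of 0.84 was the highest of the 10. In the authors' deposited table its p-value was 0.263. Of all genes tested, 9.11% had a ratio at or above that of Hk2. Hk2 made up 38.8% of the sum of both forms in the control and 48.9% in the Cre library, a difference of 10.1 percentage points. This share passed the size rule of 10 points narrowly and missed it (9.5 points) with a pseudocount of 1 FPKM added to each form. Summed over Hk1 and Hk2, hexokinase stood at 32.1 and 47.1 FPKM. Hk3, the form of white blood cells, had 1.20 and 1.56 FPKM.

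Pfkm, the muscle subunit of phosphofructokinase, (chr15:97869174-97962878) had 70.8 and 126 FPKM, or 1.78-fold (log2 ratio 0.82, p-value 0.331 in the authors' deposited table). It was the most abundant subunit in both libraries. Pfkl, the liver subunit (chr10:77449693-77472541), had 39.8 and 43.1 FPKM (0.11, or -0.30 with the fibroblast and endothelial centring). Pfkp, the platelet subunit (chr13:6547402-6647970), had 25.9 and 23.2 FPKM (-0.15, or 0.07 with equal upper quartiles). Pfkm thus made up 51.9% of phosphofructokinase transcripts in the control and 65.5% in the Cre library, Pfkl 29.2% and 22.4%, and Pfkp 19.0% and 12.1%. The sum of the 3 subunits was 137 and 192 FPKM, so as deposited this enzyme and hexokinase had a higher total in the Cre library as well as another composition. The log2 ratios of the sums, 0.49 and 0.54, exceed the 0.41 of the fibroblast and endothelial centring but not the 1.16 of the cardiomyocyte centring, so with the latter the totals would be lower.

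Of the 5 enzymes, enolase showed the largest difference in composition, at an almost equal total in the values as deposited. Eno1, the form of most tissues, (chr4:149611305-149622982) had 300 and 200 FPKM, and its log2 ratio of -0.58 was the lowest of the 10, with 22.2% of genes tested at or below it. Eno3, the muscle form (chr11:70470714-70476015), had 256 and 374 FPKM (log2 ratio 0.54). Its ratio was below 0 with the cardiomyocyte centring only. The p-values in the authors' deposited table were 0.454 for Eno1 and 0.502 for Eno3. The sum was 556 and 574 FPKM. Eno3 made up 46.1% of it in the control and 65.2% in the Cre library, a difference of 19.0 points, and the ratio of Eno3 to Eno1 was 0.856 and 1.87, or 2.18-fold. The Eno1 value is uncertain, since its row also carries the identifier Gm5506, a copy of Eno1 elsewhere in the genome: 70.5% of the 50-base windows of the Eno1 transcript occur unchanged in that copy's transcript (named Eno1b in GENCODE M21). Eno2, the neuronal form, had 1.71 and 2.70 FPKM, and Eno4 had 1.16 and 5.19 FPKM.

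Lactate dehydrogenase was the most abundant of these enzymes with a total of 1027 and 999 FPKM. As deposited, this total and that of enolase differed little, whereas with either centring both would be lower with Cre, since 0.41 or 1.16 is subtracted from log2 ratios of sums of -0.04 and 0.05. Ldha (chr7:54101173-54110997) had 542 and 433 FPKM (log2 ratio -0.32). Ldhb (chr6:142438768-142456463) had 484 and 566 FPKM, with a ratio of 0.22 that became -0.19 with the fibroblast and endothelial centring. Among 15934 genes ranked by level, Ldha was number 146 in the control and 186 with Cre, and Ldhb number 167 and 123. The Ldhb share was 47.2% and 56.6%, a difference of 9.4 points, just short of the size rule. Ldhal6b, a further gene of the family, had 0.501 and 0.279 FPKM.

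Phosphoglycerate mutase did not follow the pattern. Pgam2, the muscle form, (chr11:5701639-5703799) had 152 and 182 FPKM, with a ratio of 0.26 that became -0.15 with the fibroblast and endothelial centring. Pgam1, the form of most tissues, had 122 and 149 FPKM (0.29). Both forms were higher by a like amount, so the Pgam2 share was 55.5% and 54.9%. The ratio of the heart or muscle form to the rest was 1.51-fold higher with Cre in hexokinase, 1.76-fold in phosphofructokinase, 2.18-fold in enolase and 1.46-fold in lactate dehydrogenase, and 0.976-fold here.

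**Figure D2:**
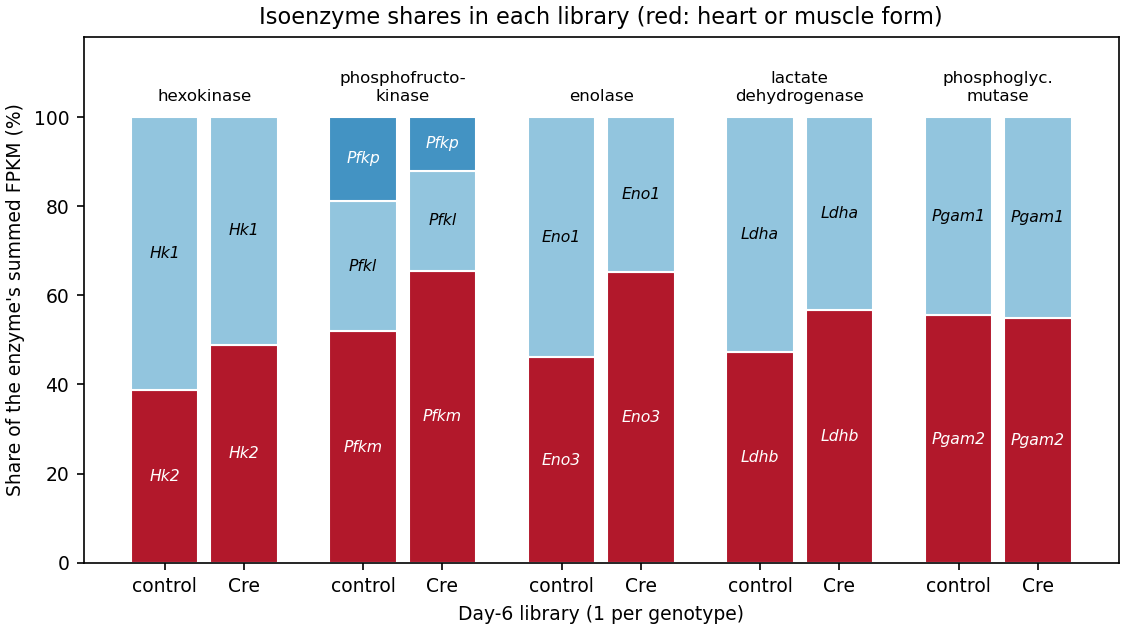
Share of each isoenzyme in the summed FPKM of its enzyme, in percent, in the control and the Cre library (1 library each, stacked bars from 0, heart or muscle form in red). The red part is larger in the Cre library by 10.1 points in hexokinase, 13.7 in phosphofructokinase, 19.0 in enolase and 9.4 in lactate dehydrogenase, and differs by -0.6 points in phosphoglycerate mutase.

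A share within a library does not depend on the scaling between libraries, so the differences in share hold under every scaling above. Only a factor common to all genes of a library cancels in this way. Differences between the libraries that vary with transcript length would not cancel and were not examined. No 50-base window of one member's transcript occurred in another's. Windows found in other genes of the annotation were 72.2% for Eno1, 41.5% for Pgam1, 27.0% for Ldhb, 17.1% for Pfkp, 16.6% for Ldha and 2.55% for Hk1. For Hk2, Pfkm, Eno3 and Pgam2 the number was 0. The mm9 loci of Hk1, Pfkm and Pfkp overlap those of 2210417K05Rik, Senp1 and Pitrm1, and whether strand was used is not given in the sources.

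The genes nearest in level to Hk2 in both libraries (Euclidean distance of log2 FPKM + 1 over 2 libraries) were Olfml2b (0.014), Rhobtb1 (0.041) and Gpt (0.043). Those nearest to Eno1 were Rpl15 (0.064), Eif5a (0.10) and Eif4a1 (0.17), a ribosomal protein gene and 2 translation factor genes. With 2 libraries such nearness is a weak description.

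Other enzymes with a heart or muscle form were set beside these. Of 15 such enzymes, 8 had a share of that form at least 10 points higher in the Cre library and 1 at least 10 points lower, against 3 and 0 of the 5 glycolytic sets. The median difference was 10.1 points in both groups. A rule in points depends on the control share: Ckmt2, at 97.1% in the control, could not rise by 10 points. Slc25a4, the muscle ADP/ATP carrier, missed the rule at 8.0 points, although its ratio to Slc25a5 was 1.86-fold higher with Cre. Among glycogen enzymes, the muscle phosphorylase Pygm made up 22.0% of the 3 phosphorylases in the control and 41.1% in the Cre library. The muscle subunit Phka1 of phosphorylase kinase made up 29.1% and 49.4%. In mitochondrial fat uptake, the muscle form Cpt1b made up 72.8% and 87.2% of its pair, and in cytochrome oxidase Cox7a1 55.4% and 67.4%. The muscle form Ckm had a lower share with Cre (85.1% and 81.1%), with a ratio to its counterpart Ckb of 5.69 and 4.29. Like Pgam2, the muscle forms Ckmt2 (97.1% and 96.9%) and Cox8b (73.1% and 72.4%) had nearly the same share in both libraries. The share was lower with Cre in 4 of the 15, and of these Ampd1, the muscle AMP deaminase, alone passed the rule, at 13.8% and 0.6%. Ampd1 was a weak gene, with 2.22 and 0.134 FPKM. Counted on reads (length-weighted FPKM) in place of FPKM, 7 of the 15 were higher by the rule and 0 were lower. The difference between the glycolytic and the other sets was not tested.

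**Figure D3:**
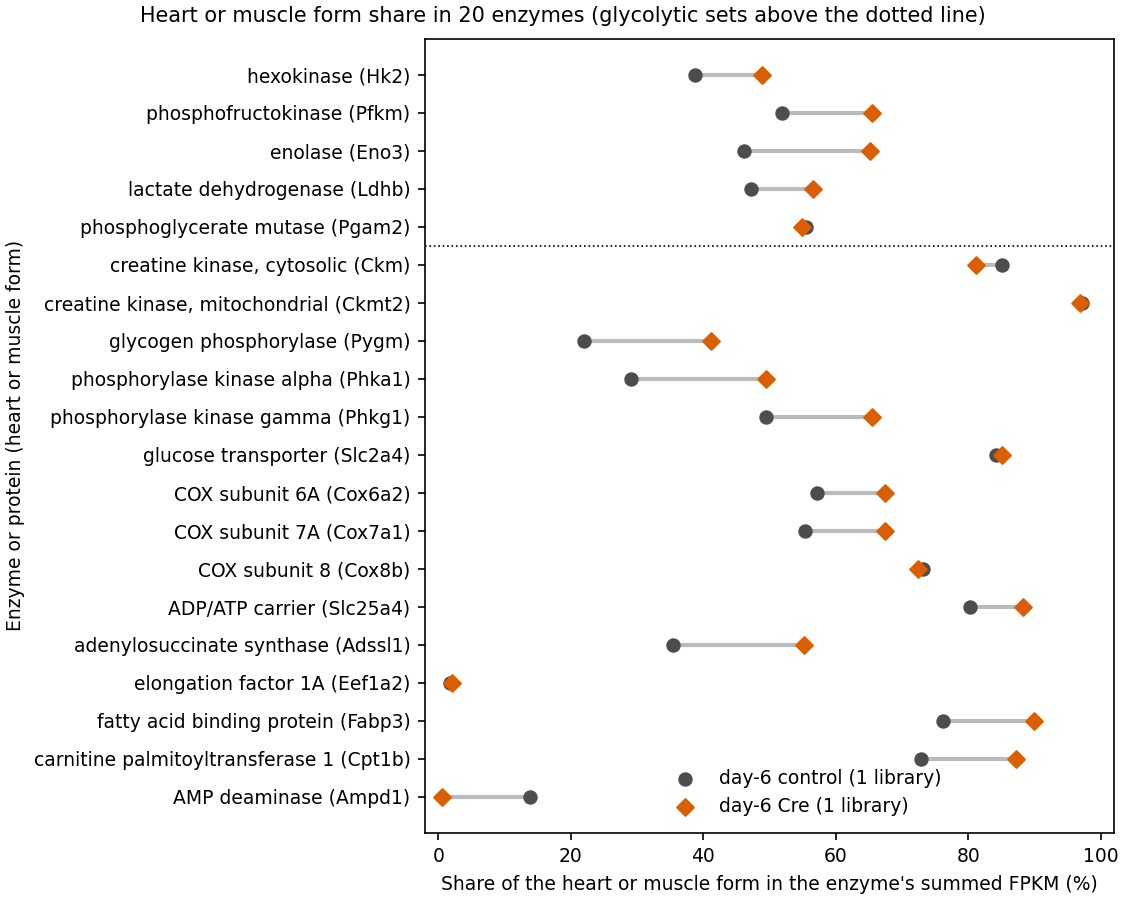
Share of the heart or muscle form in the summed FPKM of its enzyme (percent) for 20 enzymes, in the control library (circles) and the Cre library (diamonds), 1 library each. The 5 glycolytic sets lie above the dotted line; 11 of the 20 differ by at least 10 points towards the Cre library and Ampd1 differs by -13.2 points.

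None of 8 measured further glycolysis enzymes was 2-fold higher or lower on the scale of FPKM + 1, and their median log2 ratio was 0.03, before the 0.41 that the fibroblast and endothelial centring subtracts. Gapdh had 1121 and 953 FPKM and Aldoa, the aldolase of muscle and most other tissues, 915 and 1026 FPKM. Those farthest from 0 were Aldoc, a brain aldolase, at 0.925 and 2.48 FPKM (a larger ratio than 2-fold in FPKM without the added 1), Bpgm, which makes the haemoglobin ligand bisphosphoglycerate, at 24.5 and 14.9 FPKM, and Tpi1 at 195 and 255 FPKM. Red blood cell markers summed to 639 and 359 FPKM, and their part in the Bpgm difference was not tested.

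Glucose and lactate transport genes had a median log2 ratio of 0.56, with 2 of 9 at least 2-fold higher and 0 lower. These were the glucose transporter gene Slc2a12, at 2.69 and 7.75 FPKM, and the monocarboxylate transporter gene Slc16a7, at 3.01 and 7.34 FPKM. Slc2a4, the insulin-responsive transporter of muscle and fat, had 41.5 and 71.8 FPKM (0.78, below the rule). Slc2a3, a transporter of neurons and white blood cells, differed in the opposite direction, at 3.70 and 1.88 FPKM.

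Of 14 regulators of glycolysis 3 were at least 2-fold higher and 1 was lower. Epas1, the hypoxia factor HIF-2alpha, had 47.7 and 124 FPKM, Mlxipl, a glucose-sensing factor, 9.47 and 23.1 FPKM, and Ppargc1b, a coactivator of mitochondrial genes, 3.22 and 9.14 FPKM. Myc, which drives growth and Ldha transcription, was the lower gene, at 10.1 and 3.92 FPKM. Hif1a, the related hypoxia factor, had 27.9 and 22.4 FPKM (-0.30).

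No gene of pyruvate entry and the pyruvate dehydrogenase complex was 2-fold higher or lower among 14 (median 0.32). The kinases Pdk2 and Pdk4, which switch the complex off, had 46.4 and 83.4 FPKM (Pdk2) and 93.8 and 163 FPKM (Pdk4), and the phosphatase Pdp2 had 4.81 and 7.75 FPKM. Of 17 glycogen genes 2 were higher (Pygm, at 41.7 and 89.6 FPKM, and Phka1, at 3.03 and 7.94 FPKM) and 1 lower (Pygl, the liver phosphorylase, at 93.6 and 44.4 FPKM). Over all 6 pathway lists 9 of 67 measured genes (13.4%) were at least 2-fold higher and 2 (2.99%) lower, beside 6.08% and 10.4% of all genes. Eno4, a weak isoenzyme, was among the higher genes.

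**Figure D4:**
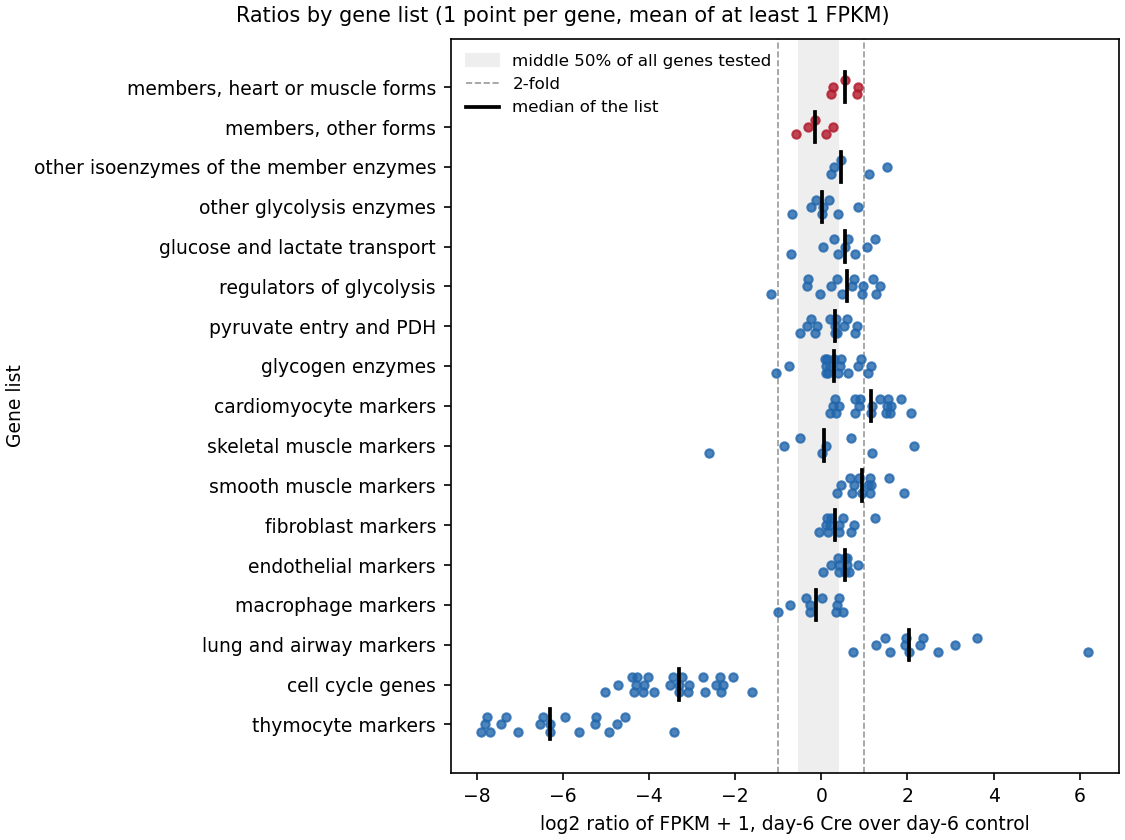
Log2 ratio of FPKM + 1, Cre over control, for each gene with a mean of at least 1 FPKM, by list, with list medians (black bars), the 2-fold limits (dashed) and the middle 50% of all genes (grey, -0.52 to 0.38). The heart or muscle forms lie from 0.22 to 0.84, below the cardiomyocyte median of 1.16, and the thymocyte markers lie at or below -3.43.

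Markers of cell types also differed between the libraries, but not all in one direction. Macrophage markers had a median log2 ratio of -0.12, with 5 of 10 measured above 0 and 5 below. The median log2 ratio of cardiomyocyte markers was 1.16 (range 0.21 to 2.09), above that of every member. Among abundant ones, Myl7 and Myl4 had 0.31 and 0.21, and Actc1 and Tnnt2 had 1.17 and 0.90. Smooth muscle markers had a median of 0.95, with 6 of 13 at least 2-fold higher. Adipocyte markers had 0.51, with Ucp1, the brown fat uncoupling protein, at 691 and 739 FPKM. Skeletal muscle also expresses Pfkm, Eno3 and Pgam2, and its markers were weak, with 10 of 17 in the rows used here, a sum of 41.1 and 56.8 FPKM and a range from -2.60 to 2.16 over the 8 measured. The median of the 8 was 0.06, with 5 above 0 and 3 below. The lowest in level was Tnnc2 at 0.131 and 0.172 FPKM. Casq1 and Tnni2 led the list by mean level, with 9.36 and 15.7 FPKM (Casq1) and 3.66 and 19.9 FPKM (Tnni2). Mylpf differed in the opposite direction, at 9.27 and 0.691 FPKM. The part of these markers, and of the lower thymocyte and cell cycle genes, in the isoenzyme differences was not tested.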

How the data were processed

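Poly-A selected RNA of the sinoatrial node was sequenced, per the labels' protocols. Reads were processed with TopHat, Bowtie and Cufflinks on mm9, per the submitters' processing notes. Versions, annotation, strand and scaling are not given in the sources. The FPKM values of 2 of the 7 libraries were deposited in 1 table. The authors also deposited a log2 fold change of each gene, with a score (their test statistic), a p-value and a q-value. The other 5 libraries were not analysed here. Of 15967 rows, 2 with a failed comparison and 31 small-RNA rows were left out, which leaves 15934 genes, 13408 of them with a mean of at least 1 FPKM. FPKM summed to 497330 (control) and 485138 (Cre). Read depth is unknown: 29 genes share 1 Cre-to-control ratio (0.824), but the read number behind it is not fixed, so no count or interval was derived.

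Log2 ratios used a pseudocount of 1 FPKM, and a 2-fold difference was the size rule. Isoenzyme shares were taken of summed FPKM, with a rule of 10 percentage points. Calculations used Python 3.11.15 and pandas 2.3.3 and were tested on simulated data. Transcript windows of 50 bases came from GENCODE M21, and 1 promoter window per gene from RefSeq, at the start with most GENCODE transcripts nearby. Named were all members and their other isoenzymes, pathway genes past the size rule or else the 3 largest ratios per list, up to 2 leading markers per cell type list, and the 3 nearest genes of the highest and lowest member, and some further genes were named with values known. A gene under this rule is not reported here. Members and lists were chosen with earlier results of these data known. Alternatives were other pseudocounts, minima, scalings and share definitions.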

Additional observations from a re-analysis of the deposited data

How the results depend on the processing

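With 1 library per genotype no replicate could be left out. No paired analysis was possible because the result comes from no test. Read depth is unknown and limits weak genes most. Members at least 2-fold higher numbered 2 with the same upper quartile (Hk2 and Pfkm, both 1.06), and 4 were at least 2-fold lower with the cardiomyocyte centring (Pfkl, Pfkp, Eno1 and Ldha). No member's direction changed with pseudocounts of 0.1 or 5 or in TPM. The sign changed for Pfkp with the same upper quartile, for 4 members with the fibroblast and endothelial centring (a shift of 0.41) and for 7 with the cardiomyocyte centring (1.16).

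Pathway genes counted as higher and lower were 2 and 0 with a pseudocount of 5, 16 and 0 with the same upper quartile, 1 and 5 with the fibroblast and endothelial centring, and 0 and 23 with the cardiomyocyte centring. Over all genes the higher count was 1262 with a pseudocount of 0.1, 449 with a minimum of 5 FPKM and 1345 with the same upper quartile. Higher and lower counts were 238 and 804 with a pseudocount of 5, 324 and 2922 with the fibroblast and endothelial centring, and 28 and 8502 with the cardiomyocyte centring. The upper-quartile scaling moved the median of all genes from -0.07 to 0.14. The difference in the Hk2 share became 9.5 points with a pseudocount of 1 and 8.5 points with all measured isoenzymes. Differences for Pfkm, Eno3, Ldhb and Pgam2 kept their side of the rule wherever recomputed. With all measured isoenzymes the difference was 18.4 points for Eno3 and 9.4 for Ldhb. Such sums were not run for the 15 other enzymes with a heart or muscle form. Among the other enzymes the count of lower muscle forms became 0 on reads, and that of higher ones 7. The cause of these changes was not tested beyond the construction of each setting.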
